A study of Mus musculus with 9 samples.

Results

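Oxidative phosphorylation genes were taken as all 90 genes, of 23038 measured, whose symbols begin with Nduf, Uqcr, Cox4 to Cox8 or Atp5, or are Sdha, Sdhb, Sdhc or Sdhd. By respiratory complex these were 40 genes of complex I (7 core subunits, 29 accessory subunits and 4 assembly factors), 4 of complex II, 8 of complex III, 20 of complex IV and 15 of complex V. A further 3 genes, Atp5s, Atp5sl and Cox4nb, match the name pattern and were not assigned to a complex here. RefSeq lists them as Dmac2l, Dmac2 and Emc8. Members encoded by mitochondrial DNA are not among the genes measured.

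The libraries came from sensory neurons of the mouse dorsal root ganglion that detect mechanical stimuli, dissociated from neonates of both sexes on a mixed C57/Sv129 background and sorted by fluorescence. TrkC:GFP neurons carried GFP from a TrkC bacterial artificial chromosome and held proprioceptors, which sense muscle length and tension, and slowly adapting low-threshold mechanoreceptors. Rx3+/+;PV:tdT neurons (wild-type PV below) were wild type for Runx3 and carried PV:Cre with the Ai14 tdTomato reporter, so that tdTomato marked proprioceptors and rapidly adapting low-threshold mechanoreceptors. Rx3-/-;PV:tdT neurons (mutant PV below) carried the same alleles in Runx3 mutants, whose proprioceptors do not survive, leaving the rapidly adapting neurons. Each group had 3 libraries. TrkC:GFP libraries came from postnatal days 6, 2 and 1 and pools of 4, 2 and 4 animals. Wild-type PV libraries came from days 6, 4 and 3 and pools of 4, 3 and 3 animals. Mutant PV libraries came from days 3, 0 and 0, of which 2 were from 1 animal each and 1 from 4. The mean ages were 3.00, 4.33 and 1.00 days in that order, and age differed along with the other features. Between the PV groups, which share a reporter, Runx3 genotype, cell content and age cannot be told apart. Between TrkC:GFP and wild-type PV, neither a Runx3 mutant by its label, reporter, cell content and age cannot be told apart, and between TrkC:GFP and mutant PV all 4 features differ.

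Complexes I to IV of the inner mitochondrial membrane pass electrons from NADH and succinate to oxygen, and complexes I, III and IV pump protons as they do so. Complex V, the ATP synthase, uses the proton gradient to make ATP. Most of their subunits are encoded in the nucleus, and neurons depend on them to pay for ion pumping. Proprioceptors are large, heavily myelinated neurons that fire at high sustained rates.

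The authors deposited a mean RPKM per group (reads scaled to gene length and library size), from which whole reads per library could be recovered for 89 of the 90 members, all but Atp5b. Libraries are given in order of depth, deepest first, since they could not be tied to ages. They held 12225112, 10536972 and 7779765 reads in TrkC:GFP, 13737224, 12150764 and 11567681 in wild-type PV, and 12847709, 12171315 and 4510352 in mutant PV. All 14 sensory neuron markers had reads in every group, but their levels differed. In the authors' deposited calls, 5 were higher and 3 lower in wild-type PV than in mutant PV, where 7.82% and 8.57% of all genes were. Ntrk3 stood at 460 to 985 CPM (reads scaled to library size alone) in TrkC:GFP and wild-type PV and 107 to 277 CPM in mutant PV. Prph stood at 586 to 789 and 1458 to 1705 CPM. Runx3 stood at 110 to 147 CPM in TrkC:GFP and wild-type PV and at 47.2 to 69.5 CPM in mutant PV. The labels do not say which exons the mutation removes, so reads outside them do not check the genotype. The deeper 2 mutant PV libraries held kidney transcripts, with a summed level of 13 kidney markers (12 measured) of 89.0 and 124 CPM against 10.6 CPM in the third and 3.95 to 16.9 CPM in the other groups. Lars2 is a gene whose reads can come from ribosomal RNA. It stood at 236 to 354 CPM in wild-type PV, 591 to 3045 CPM in TrkC:GFP and 1636 to 2809 CPM in mutant PV. Rn45s, a ribosomal RNA gene, had a deposited group RPKM of 1671 in wild-type PV, 5966 in TrkC:GFP and 9502 in mutant PV. The 9 glial markers summed to 751 to 948 CPM in mutant PV, 296 to 725 CPM in TrkC:GFP and 353 to 518 CPM in wild-type PV. The part of these in the results below was not tested.

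Respiratory chain transcripts took a smaller share of the reads in mutant PV than in either other group, for every complex but the fourth. The 89 recovered members together took 0.909%, 0.983% and 0.923% of reads in the TrkC:GFP libraries, 0.928%, 1.05% and 0.976% in wild-type PV, and 0.762%, 0.716% and 0.757% in mutant PV. The mutant libraries all lay below the other 6. Complex I took 0.273%, 0.304% and 0.259% of reads in TrkC:GFP, 0.288%, 0.321% and 0.298% in wild-type PV, and 0.223%, 0.202% and 0.213% in mutant PV. Complex III took 0.0876% to 0.0928%, 0.0903% to 0.101% and 0.0626% to 0.0675% in the same order. Complex II, the smallest, took 0.0770% to 0.0853%, 0.0802% to 0.0864% and 0.0619% to 0.0670%. Complex V without Atp5b took 0.302% to 0.329%, 0.315% to 0.353% and 0.228% to 0.259%. The mutant range lay below both others in each of these. Complex IV, cytochrome c oxidase, took 0.158% to 0.179% in TrkC:GFP, 0.145% to 0.176% in wild-type PV and 0.147% to 0.151% in mutant PV, so that the PV groups overlapped. In bulk libraries, fewer cells of a kind and less RNA per cell cannot be told apart.

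The first comparison set wild-type PV against mutant PV, the same reporter with and without Runx3 and proprioceptors. In the authors' deposited table (edgeR, Benjamini-Hochberg adjusted p under 0.05), 27 of the 90 members (30.0%) were higher in wild-type PV, where 7.82% of all 23038 genes were, and 2 were lower, where 8.57% were. The members are abundant transcripts, and abundant genes were called more often. Among genes with a mean of at least 5 on the log2 CPM scale, 22 of 61 members (36.1%) were higher against 17.5% of all such genes, and 1 was lower against 13.8%. The median log2 fold change of the 90 members was 0.27, against -0.06 over genes with reads. In limma on the recovered reads (voom, Benjamini-Hochberg), 30 of 82 members tested were higher and 1 lower, where 15.6% and 13.7% of all genes tested were. The deposited and limma calls shared 26 members, and 22 of them were called in every limma fit that left out a library, which gave 23 to 31 members higher. By ranges alone, all 3 wild-type libraries lay above all 3 mutant libraries for 36 of the 82 (22.6% of all genes tested) and below for 3 (20.3%). Fewer members were called higher without the deeper 2 mutant libraries, which held the kidney transcripts, a fit that left 1 mutant library. The share of all genes called was not counted in the fits that left out libraries.

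The second comparison set TrkC:GFP against mutant PV. The authors' deposited table (edgeR) called 12 members (13.3%) higher in TrkC:GFP, where 5.87% of all genes were higher, and 0 lower, where 4.20% were. Of members with a negative fold change, 2 had an unadjusted p under 0.05 in that table and 1 in limma. Among the abundant genes, 9 of 63 members (14.3%) were higher against 10.9% of all such genes, a share near the background, and 0 were lower against 8.11%. limma on the recovered reads called 25 of 82 members higher and 0 lower, where 14.3% and 8.40% of all genes tested were. By ranges alone, TrkC:GFP lay above mutant PV for 36 of the 82 (21.7% of all genes tested) and below for 2 (12.4%). The limma count was the less steady one. It was 15 without the deepest TrkC:GFP library, 13 without the second, and 17 without either of the deeper 2 mutant libraries in turn. It fell further without both, a fit that left 1 mutant library. With libraries scaled by median ratios it was 13, and 1 member, Cox8a, was lower. The share of all genes called was not counted in these fits. Of the 12 deposited calls, 10 were called in every limma fit that left out a library. The comparison shares the mutant PV libraries with the first, so the calls in both are not independent.

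**Figure D1:**
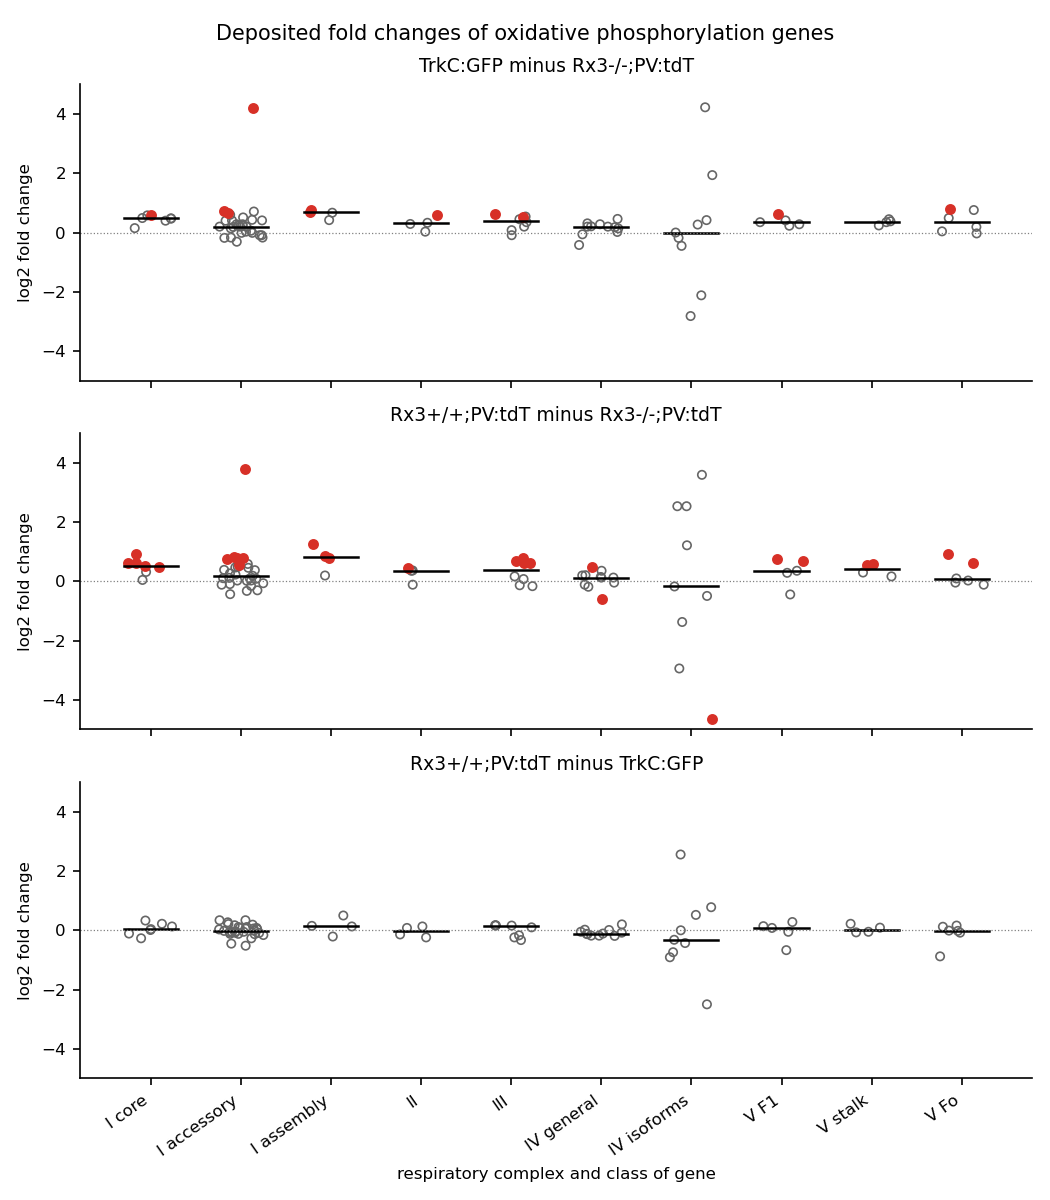
Deposited log2 fold change of each member (vertical axis, log2 scale) by complex and class (horizontal axis) in the comparisons of TrkC:GFP with mutant PV, wild-type PV with mutant PV, and wild-type PV with TrkC:GFP. Filled red points had a deposited adjusted p under 0.05, open points did not, and bars are medians; the red points of the top panels lie at core, assembly and complex III genes more than at complex IV, and the bottom panel has none.

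Complex I, which oxidises NADH, had 14 of 40 members higher in wild-type PV than in mutant PV in the authors' deposited table, with a median log2 fold change of 0.35. Its core subunits carry the flavin and iron-sulfur clusters and bind quinone, and 5 of the 7 were called. Ndufs1, which holds iron-sulfur clusters in the arm that oxidises NADH, stood at 71.4, 66.3 and 65.9 RPKM in TrkC:GFP, 87.5, 74.5 and 93.8 RPKM in wild-type PV, and 48.5, 50.7 and 36.2 RPKM in mutant PV. The ranges of all 3 groups were apart. limma gave a log2 fold change of 0.90 (SE 0.14, adjusted p = 0.000445) for wild-type PV and 0.58 (SE 0.14, adjusted p = 0.0105) for TrkC:GFP, each against mutant PV. Ndufs7, Ndufs8 and Ndufv2 had deposited log2 fold changes of 0.49, 0.62 and 0.62 in wild-type PV. Some core subunits were not called. Ndufv1, which binds the flavin, stood at 56.3 to 59.8 RPKM in wild-type PV and 37.3 to 61.2 RPKM in mutant PV, and Ndufs3 at 40.1 to 55.7 and 43.7 to 55.3 RPKM. Both overlapped between the PV groups. In TrkC:GFP against mutant PV, Ndufs1 was the only core subunit among the deposited calls, whereas limma called 5 of 7.

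Of the 29 accessory subunits, which surround the core without taking part in catalysis, 6 were called higher in wild-type PV. Ndufa10, the most abundant complex I transcript by mean RPKM, stood at 304, 330 and 195 RPKM in TrkC:GFP, 334, 364 and 304 RPKM in wild-type PV, and 211, 161 and 210 RPKM in mutant PV. Wild-type PV lay above mutant PV throughout, while the lowest TrkC:GFP library fell inside the mutant range. Its log2 fold change in limma was 0.80 (SE 0.18, adjusted p = 0.00581) for wild-type PV and 0.51 (SE 0.18, adjusted p = 0.0669) for TrkC:GFP. Ndufa9 stood at 157, 176 and 158 RPKM in TrkC:GFP, 183, 178 and 192 RPKM in wild-type PV, and 117, 107 and 89.2 RPKM in mutant PV, with no overlap among the 3 groups. Ndufb10, of the membrane arm, stood at 81.4 to 104 RPKM in wild-type PV, 60.3 to 87.1 RPKM in TrkC:GFP and 50.6 to 57.9 RPKM in mutant PV. Ndufab1, the mitochondrial acyl carrier protein, and Ndufs4 were also called, at deposited log2 fold changes of 0.79 and 0.55. Ndufc2 was among the deposited calls for TrkC:GFP, at 114 to 130 RPKM against 57.5 to 91.2 RPKM in mutant PV. Wild-type PV, at 88.6 to 107 RPKM, overlapped mutant PV and was not called there, although limma called Ndufc2 in both. At the other end, Ndufa1 stood at 71.8 to 90.0 RPKM in wild-type PV and 102 to 121 RPKM in mutant PV, apart in range but at a deposited adjusted p (edgeR) of 0.124.

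Ndufs5, the member of complex I with the lowest mean RPKM, had 10, 10 and 3 reads in TrkC:GFP, 9, 9 and 2 in wild-type PV and 0 in all mutant PV libraries. With the mutant group set to a floor of 3 reads in all, it was at least 5.65-fold higher in TrkC:GFP and at least 4.12-fold higher in wild-type PV. The gene length behind its RPKM values was 74 bases, the shortest of all subunits, so these reads cover a small part of the gene. It was too low for limma. The bounds allow for counting error in the group without reads only, and take the reads of the other groups as counted.

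Of the 4 complex I assembly factors, which help build the enzyme and then leave it, 3 were higher in wild-type PV and 2 in TrkC:GFP. Ndufaf4 had the smallest p of all members in wild-type PV against mutant PV. It stood at 16.2, 14.6 and 12.2 RPKM in TrkC:GFP, 19.1, 22.0 and 19.8 RPKM in wild-type PV, and 8.04, 7.06 and 10.3 RPKM in mutant PV. The groups formed 3 separate ranges, with limma log2 fold changes against mutant PV of 1.32 (SE 0.17, adjusted p = 0.000105) for wild-type PV and 0.83 (SE 0.17, adjusted p = 0.00425) for TrkC:GFP. Ndufaf1, which acts on the membrane arm, stood at 24.1 to 26.3 RPKM, 26.2 to 30.2 RPKM and 12.2 to 17.9 RPKM in the 3 groups in the same order. Ndufaf2 stood at 33.8 to 47.0, 37.3 to 48.3 and 22.5 to 28.3 RPKM. Mutant PV was the low group for each. Ndufaf3 overlapped, at 10.9 to 11.7 RPKM in wild-type PV and 7.87 to 12.2 RPKM in mutant PV.

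Complex II, succinate dehydrogenase, also belongs to the Krebs cycle. Sdha, its flavoprotein, stood at 157, 167 and 159 RPKM in TrkC:GFP, 175, 182 and 172 RPKM in wild-type PV, and 125, 135 and 126 RPKM in mutant PV, again in 3 separate ranges. The log2 fold changes in limma were among the smallest called, 0.45 (SE 0.09, adjusted p = 0.00361) for wild-type PV and 0.32 (SE 0.10, adjusted p = 0.029) for TrkC:GFP; the authors' deposited table called the first only. Sdhb, the iron-sulfur subunit, stood at 136, 149 and 110 RPKM in TrkC:GFP, 108, 125 and 103 RPKM in wild-type PV, and 87.1, 81.6 and 92.6 RPKM in mutant PV, and was called in TrkC:GFP. The membrane anchors were not called by the deposited table. Sdhd stood at 102 to 116 RPKM in wild-type PV and 80.0 to 88.5 RPKM in mutant PV. In limma it was called for wild-type PV only, at a log2 fold change of 0.37 (SE 0.12, adjusted p = 0.0317). Sdhc, the lowest of the complex, spanned 35.8 to 91.4 RPKM within mutant PV, with the highest value in the deepest library.

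In complex III, which passes electrons from quinone to cytochrome c, all 3 core members were higher in wild-type PV and 1 of 5 accessory subunits was. Uqcrc1, a core protein, stood at 123, 125 and 127 RPKM in TrkC:GFP, 138, 130 and 133 RPKM in wild-type PV, and 85.5, 86.5 and 87.7 RPKM in mutant PV. Libraries within a group were close together, and the log2 fold changes in limma were 0.63 (SE 0.10, adjusted p = 0.000633) and 0.53 (SE 0.10, adjusted p = 0.0026) for wild-type PV and TrkC:GFP. Its partner Uqcrc2 stood at 147, 161 and 133 RPKM, 155, 167 and 169 RPKM, and 84.0, 115 and 85.5 RPKM in the same order. Uqcrfs1, the Rieske iron-sulfur protein, stood at 72.2 to 78.1, 76.0 to 99.7 and 49.0 to 57.2 RPKM. Mutant PV lay below both other groups for each. Among the small accessory subunits, Uqcrh, the hinge protein and the most abundant of the complex, stood at 230 to 279, 267 to 318 and 174 to 197 RPKM and was called in wild-type PV. Uqcr10, Uqcr11, Uqcrb and Uqcrq were not, with deposited log2 fold changes of 0.17, -0.16, 0.08 and -0.13 there.

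Complex IV reduces oxygen to water. Of its 11 general nuclear subunits, Cox7b was higher and Cox8a lower in wild-type PV in the authors' deposited table, and none was called in TrkC:GFP (edgeR; over the 20 members of the complex, 3 had an unadjusted p under 0.05, and limma called 1, Cox6c). Their median log2 fold change was 0.13 in wild-type PV and 0.20 in TrkC:GFP. Cox7b stood at 206, 200 and 176 RPKM in TrkC:GFP, 213, 242 and 215 RPKM in wild-type PV, and 159, 164 and 156 RPKM in mutant PV. Cox8a, the smallest nuclear subunit, went the other way, at 153, 145 and 158 RPKM, 119, 162 and 118 RPKM, and 183, 193 and 236 RPKM. Mutant PV lay above both other groups, and limma gave -0.60 (SE 0.15, adjusted p = 0.0104) for wild-type PV and -0.40 (SE 0.15, adjusted p = 0.0804) for TrkC:GFP. The wild-type PV call was lost in limma without the first or the third wild-type library. Cox4i1, a large regulatory subunit, stood at 316 to 370 RPKM in wild-type PV and 298 to 333 RPKM in mutant PV, and Cox5a at 282 to 398 and 260 to 298 RPKM. Ndufa4, first described in complex I and now placed in complex IV, was the most abundant of the complex at 465 to 593 RPKM in wild-type PV and 447 to 471 RPKM in mutant PV. These neighbours overlapped.

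Complex V had 6 of 15 members higher in wild-type PV and 2 in TrkC:GFP. Atp5b, the catalytic beta subunit, had the highest mean RPKM of all members. The authors' deposited table gave its group RPKM as 2097 in TrkC:GFP, 2315 in wild-type PV and 1373 in mutant PV, with log2 fold changes against mutant PV of 0.61 (edgeR adjusted p = 0.044) and 0.75 (edgeR adjusted p = 0.00274). Its values per library could not be recovered. Atp5a1, its alpha partner, stood at 510, 548 and 567 RPKM, 553, 557 and 605 RPKM, and 496, 407 and 432 RPKM. Mutant PV was the low group, but the deposited table did not call Atp5a1. In limma it was called for wild-type PV only, at a log2 fold change of 0.36 (SE 0.10, adjusted p = 0.0181). Atp5c1, the rotating shaft, stood at 238, 250 and 203 RPKM in TrkC:GFP, 263, 286 and 289 RPKM in wild-type PV, and 159, 166 and 195 RPKM in mutant PV, with limma log2 fold changes of 0.71 (SE 0.12, adjusted p = 0.000766) and 0.43 (SE 0.12, adjusted p = 0.0204) for wild-type PV and TrkC:GFP. Of the stalk, Atp5j and Atp5f1 were called in wild-type PV, at deposited log2 fold changes of 0.54 and 0.60, and Atp5h and Atp5o were not, at 0.30 and 0.17.

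The c ring of complex V turns as protons pass and is made of the same mature peptide from Atp5g1, Atp5g2 and Atp5g3. Atp5g1 stood at 128, 146 and 130 RPKM in TrkC:GFP, 145, 151 and 155 RPKM in wild-type PV, and 81.8, 79.2 and 73.3 RPKM in mutant PV. It had the smallest p of all members in TrkC:GFP, with limma log2 fold changes of 0.78 (SE 0.12, adjusted p = 0.000638) and 0.93 (SE 0.12, adjusted p = 0.000128) for TrkC:GFP and wild-type PV. Atp5g3 stood at 575, 617 and 539 RPKM, 569, 769 and 550 RPKM, and 400, 333 and 505 RPKM in the usual order, and was called in wild-type PV. Atp5g3 gave 77.8% to 87.1% of the family's summed RPKM per library, Atp5g1 12.6% to 21.9% and Atp5g2 at most 0.490%. The share of Atp5g1 was 16.9%, 19.1% and 12.6% in mutant PV and 16.4% to 21.9% in the other groups, which overlapped. The small membrane subunits Atp5j2, Atp5k and Atp5l had deposited log2 fold changes of -0.04, 0.03 and 0.10 in wild-type PV.

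**Figure D2:**
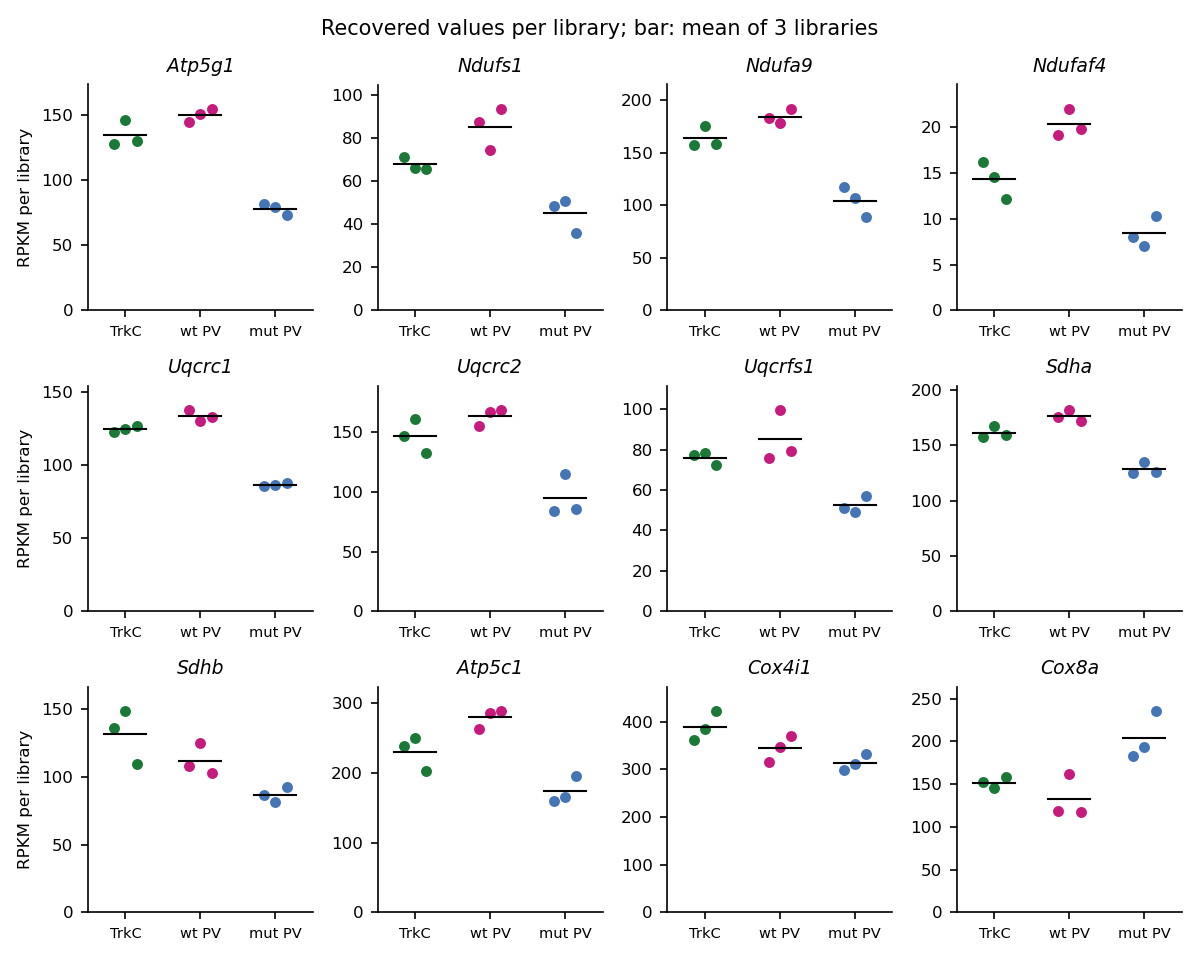
RPKM per library (vertical axis, linear, from 0) of 12 members in the 3 libraries of TrkC:GFP (TrkC), wild-type PV (wt PV) and mutant PV (mut PV), deepest library at the left of each group; points are libraries and bars are means. Mutant PV lies below both other groups for the first 10 genes, overlaps wild-type PV for Cox4i1, and lies above for Cox8a.

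Of the genes not assigned to a complex, Atp5s was called against mutant PV in both other groups. It stood at 14.6 to 20.6 RPKM in TrkC:GFP, 17.4 to 23.0 RPKM in wild-type PV and 8.79 to 10.9 RPKM in mutant PV. Atp5sl and Cox4nb were not, with deposited log2 fold changes of 0.27 and 0.09 in wild-type PV.

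Several complex IV subunits have paralogs that other tissues use, and here the general form dominated in every library. Cox4i1, Cox6a1, Cox6b1, Cox7b, Cox8a and Ndufa4 each gave at least 98.3% of their family's summed RPKM in all 9 libraries. Of the heart and muscle forms, Cox6a2 gave at most 0.757% and Cox7a1 0.351% to 5.13% of their families, and Cox8b had 1 read in 1 wild-type PV library. Muscle markers summed to 14.9 to 28.9 CPM in TrkC:GFP, 3.79 to 5.62 CPM in wild-type PV and 2.65 to 5.09 CPM in mutant PV. Most of the TrkC:GFP sum was the myosin gene Myh8, at 10.9, 25.5 and 11.4 CPM, and each of the other 10 markers stood at 2.19 CPM or less there. Of the forms known from testis, Cox6b2 stood at 0.947 to 5.06 RPKM, Cox7b2 had 4 reads in each of TrkC:GFP and wild-type PV and 0 in mutant PV, and Cox8c had 1 read in all. Ndufa4l2 had 0 reads in every library, which allows up to 3 reads per group. Cox7a was the family with a sizeable second member: Cox7a2 gave 59.9% to 67.1%, and Cox7a2l, a factor that joins complexes III and IV, 29.5% to 39.0%.

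Cox4i2, known as the lung isoform, was the only paralog of complex IV in the deposited calls. It had 0, 3 and 1 reads in TrkC:GFP, 0 in all wild-type PV libraries and 17, 11 and 0 in mutant PV. Its reads in mutant PV lay in the deeper 2 libraries, those with kidney transcripts, and the third had none. The summed level of the 8 endothelial and mural markers was also higher in those libraries, at 24.8 and 37.5 CPM. It was 13.1 CPM in the third and 4.61 to 14.9 CPM in the other groups. Emcn and Cldn5 of that list were at 4.36 and 6.41 CPM and at 0.778 and 1.23 CPM in the deeper 2, and at 0 in the third. Cdh5, Kdr and Acta2 were also at 0 in the third. Pecam1 stood at 8.25, 11.3 and 6.87 CPM in mutant PV and Pdgfrb at 5.68, 9.45 and 4.21 CPM. Rgs5 was highest in the third, at 1.09, 1.73 and 2.00 CPM. The part of these cells in the Cox4i2 reads was not tested. Over the group Cox4i2 was at least 9.22-fold lower in wild-type PV than in mutant PV. The bound rests on the deeper 2 mutant PV libraries and takes their reads as counted, without counting error.

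**Figure D3:**
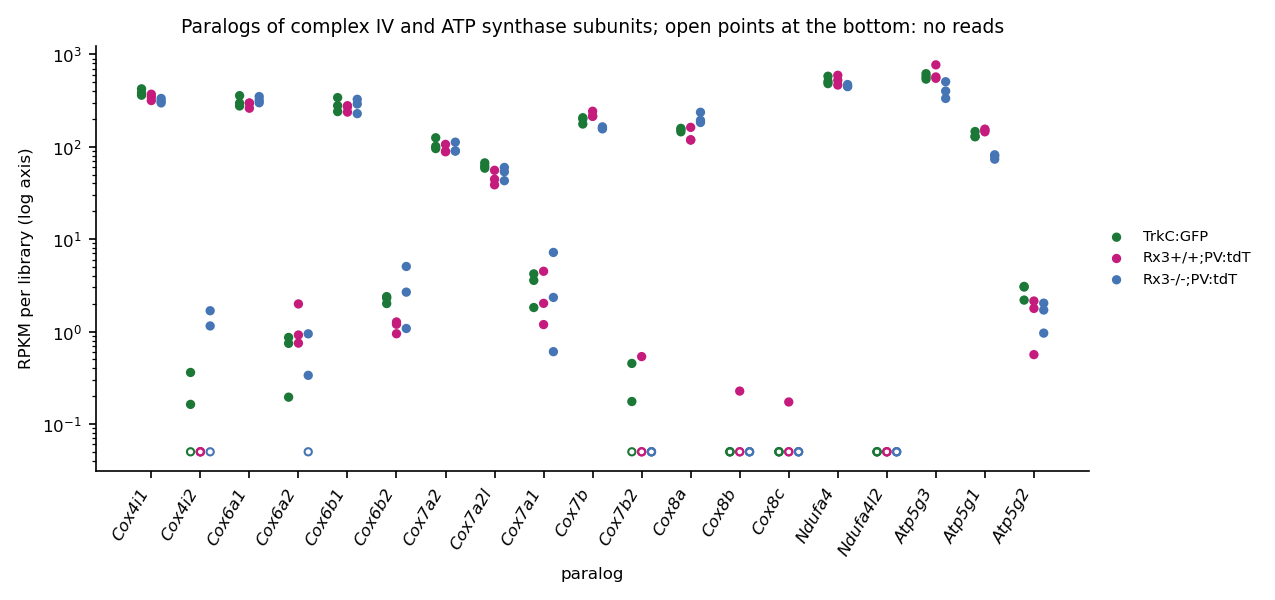
RPKM per library (vertical axis, log scale) of each paralog in the Cox4i, Cox6a, Cox6b, Cox7a, Cox7b, Cox8, Ndufa4 and Atp5g families (horizontal axis), with 3 points per group coloured by group. Open points at the bottom edge mark libraries with 0 reads; the general forms lie between 73.3 and 769 RPKM apart from Cox7a2l, at 38.7 to 66.9 RPKM, and the rarer forms lie below 10 RPKM in every library.

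Wild-type PV and TrkC:GFP, which both hold proprioceptors, were set against each other in the third comparison. The authors' deposited table (edgeR) called 0 of 90 members higher in wild-type PV, where 0.699% of all genes were, and 0 lower, where 2.08% were. At an unadjusted p under 0.05 there were 6 members, Ndufaf4 and Ndufs1 on the higher side and Ndufa6, Cox6b2, Cox7a2l and Atp5e on the lower, and limma called 0 either way, where 0.0878% and 0.176% of genes were, with 6 at that unadjusted level. Ndufaf4 came closest, with a limma log2 difference of 0.49 (SE 0.15, adjusted p = 0.219). By ranges alone, wild-type PV lay above TrkC:GFP for 9 recovered members, with Ndufs1, Ndufa9, Ndufaf4 and Sdha among them, and below for 7. The share over all genes was not counted for these ranges. Atp5e, the small epsilon subunit, stood at 91.5, 96.5 and 136 RPKM in TrkC:GFP and 70.7, 85.9 and 46.1 RPKM in wild-type PV. The median log2 fold change was 0.01 for members and -0.11 for all genes with reads. TrkC:GFP against both PV groups together likewise gave 0 members either way, where 0.169% of genes were higher and 0.286% lower, with 0 at an unadjusted p under 0.05. TrkC:GFP with wild-type PV against mutant PV gave 28 members higher and 2 lower, where 8.82% and 7.96% of genes were; it reuses the libraries of the first comparisons.

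Longer subunit genes were called more often than shorter ones. Among the 58 recovered subunits with a mean of at least 5 on the log2 CPM scale, the deposited log2 fold change of wild-type PV against mutant PV had a Spearman rho of 0.60 with gene length. Over 2315 other genes in the same length range it was 0.05. Of 22 subunits under 600 bases, 1 (Uqcrh) was called higher and the median log2 fold change was 0.06. Of 19 subunits from 600 to under 1200 bases, 7 were called and the median was 0.38. Of 17 from 1200 to under 5000 bases, 12 were called and the median was 0.60. Other genes of the same classes were called higher in 3.85%, 10.4% and 16.9% of cases, with medians of -0.30, -0.04 and 0.06; the shortest class held 26 genes. The rho was 0.54 over 60 subunits for TrkC:GFP against mutant PV and 0.46 over 60 for wild-type PV against TrkC:GFP. These are descriptions over genes that share libraries and groups.

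Length and read number move together. The rho of the same fold changes was 0.50 with mean log2 CPM, which grows with length, and 0.04 with mean RPKM, which does not. The subunits that carry cofactors tend to be among the longer genes and the small subunits of complexes III, IV and V among the shorter ones, so length and role cannot be told apart with these genes. Other readouts that differed by group, Lars2 and Rn45s among them, are given above, and their part in this pattern was not tested.

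**Figure D4:**
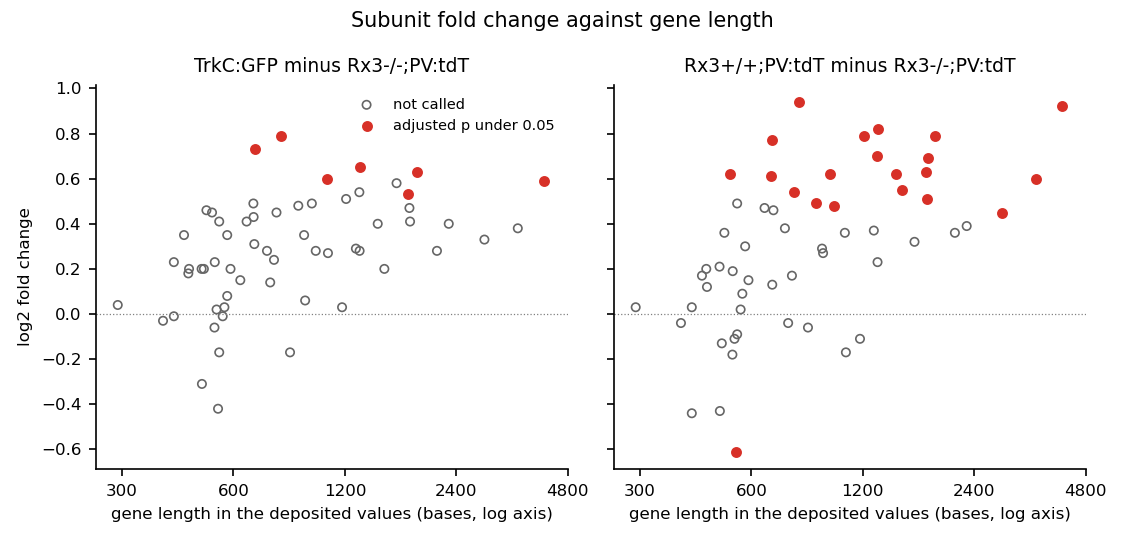
Deposited log2 fold change (vertical axis) of subunits with a mean log2 CPM of at least 5 against the gene length behind the deposited RPKM (horizontal axis, bases, log scale), for TrkC:GFP (left) and wild-type PV (right) against mutant PV. Each point is a subunit and filled red points had a deposited adjusted p under 0.05; on the right 1 of 22 subunits under 600 bases and 12 of 17 from 1200 bases up are called higher.

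Promoters were read because many respiratory genes are known targets of NRF1, YY1, ETS family (GABP) and estrogen-related receptor factors. RefSeq promoters (GRCm38.p6, 250 bases before to 50 after the start) matched 68 of 83 subunits, giving 73 promoters. On either strand, the NRF1 motif GCGCNTGCG was in 32.9% of them and in 6.31% of all 32851 promoters. The YY1 motif AAGATGGCG was in 9.59% and 1.40%, the ETS motif CCGGAAGT in 6.85% and 3.89%, the estrogen-related receptor motif TNAAGGTCA in 4.11% and 1.28%, and the SP1 motif GGGCGG in 39.7% and 35.7%. Among the 22 promoters of subunits called higher in wild-type PV, 27.3% held NRF1 and 18.2% YY1, against 35.3% and 5.88% of the other 51. The YY1 figures are 4 and 3 promoters. The 4 below belong to the called subunits with the smallest p that hold either motif, with the matches in capitals. In Uqcrc1, 2 of the 3 NRF1 matches overlap, starting at bases 281 and 282 and read on opposite strands.
Ndufa9 (chr6:126849095-126849394, minus strand): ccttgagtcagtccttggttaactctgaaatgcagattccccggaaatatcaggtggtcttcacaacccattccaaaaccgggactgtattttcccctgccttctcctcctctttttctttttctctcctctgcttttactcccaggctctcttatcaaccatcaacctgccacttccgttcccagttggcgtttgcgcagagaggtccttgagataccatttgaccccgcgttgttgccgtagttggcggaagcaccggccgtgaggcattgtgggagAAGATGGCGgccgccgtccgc
Atp5c1 (chr2:10080383-10080682, minus strand): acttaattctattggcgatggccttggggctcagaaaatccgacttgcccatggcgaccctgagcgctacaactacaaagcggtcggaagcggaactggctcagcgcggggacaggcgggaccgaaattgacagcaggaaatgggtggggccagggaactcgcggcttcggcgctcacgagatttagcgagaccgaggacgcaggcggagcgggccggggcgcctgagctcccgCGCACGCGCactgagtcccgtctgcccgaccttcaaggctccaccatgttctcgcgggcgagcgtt
Ndufb10 (chr17:24724374-24724673, minus strand): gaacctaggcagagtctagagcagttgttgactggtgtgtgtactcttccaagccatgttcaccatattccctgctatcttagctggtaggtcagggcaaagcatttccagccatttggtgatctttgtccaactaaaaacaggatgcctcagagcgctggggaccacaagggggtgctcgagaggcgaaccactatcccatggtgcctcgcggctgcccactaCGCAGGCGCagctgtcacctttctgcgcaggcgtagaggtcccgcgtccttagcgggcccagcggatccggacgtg
Uqcrc1 (chr9:108936398-108936697, plus strand): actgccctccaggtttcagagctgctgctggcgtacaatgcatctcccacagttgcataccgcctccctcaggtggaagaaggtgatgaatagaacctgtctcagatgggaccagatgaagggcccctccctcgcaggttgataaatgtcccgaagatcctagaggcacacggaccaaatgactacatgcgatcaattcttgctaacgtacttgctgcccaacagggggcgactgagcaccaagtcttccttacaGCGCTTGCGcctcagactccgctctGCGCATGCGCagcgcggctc

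Genes around the respiratory chain were read from lists of the neighbouring steps. Of all genes, 7.82% were called higher and 8.57% lower in wild-type PV, and 5.87% and 4.20% in TrkC:GFP, each against mutant PV. Among genes with a mean of at least 5 on the log2 CPM scale, the shares were 17.5% and 13.8%, and 10.9% and 8.11%. These are the background for each list below. The Krebs cycle, which feeds NADH and succinate to the chain, had 9 of 14 genes higher in wild-type PV and 6 in TrkC:GFP, each against mutant PV, with median log2 fold changes of 0.77 and 0.56. Ogdh, the first enzyme of the 2-oxoglutarate dehydrogenase complex, stood at 79.3, 97.3 and 72.4 RPKM in TrkC:GFP, 104, 114 and 116 RPKM in wild-type PV, and 38.7, 39.1 and 54.4 RPKM in mutant PV. Idh3a, a catalytic subunit of isocitrate dehydrogenase, stood at 73.8 to 103, 104 to 120 and 46.8 to 56.8 RPKM. Dld and Sucla2 had deposited log2 fold changes of 0.95 and 0.94 in wild-type PV. These 4 genes lay lower in every mutant library than in the other 6.

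Pyruvate entry had 5 of 12 genes measured higher and 1 lower in wild-type PV, where 7.82% and 8.57% of all genes were. In TrkC:GFP it had 4 and 1, where 5.87% and 4.20% of all genes were. Pdhb, of the pyruvate dehydrogenase complex, stood at 186 to 243, 225 to 245 and 110 to 126 RPKM in TrkC:GFP, wild-type PV and mutant PV, and Pdha1 and Dlat of the same complex were also higher. Its inhibitory kinases split: Pdk3 had a deposited log2 fold change of 1.25 in wild-type PV and Pdk2 of -1.52, at 5.20 to 8.63 RPKM in wild-type PV against 15.5 to 29.4 RPKM in mutant PV. Glycolysis and lactate metabolism had 10 of 21 genes higher in wild-type PV and 7 in TrkC:GFP, where 7.82% and 5.87% of all genes were. Ldhb and Ldha, which interconvert lactate and pyruvate, had deposited log2 fold changes of 1.01 and 0.82 in wild-type PV, Aldoc 1.00 and Pfkm 0.76. Carriers and porins had 6 of 14 higher and 1 lower in wild-type PV, where 7.82% and 8.57% of all genes were. Slc25a5, an ADP and ATP carrier, stood at 125 to 147, 163 to 196 and 82.1 to 104 RPKM, and the phosphate carrier Slc25a3, the mitochondrial creatine kinase Ckmt1 and the oxoglutarate carrier Slc25a11 were higher as well, while Ucp2 was the lower 1, at a deposited log2 fold change of -1.14.

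Of 5 further subunits and cytochrome c genes outside the name pattern, Cyc1 (cytochrome c1) and Cycs (cytochrome c) were higher in wild-type PV, at deposited log2 fold changes of 0.61 and 0.94. Assembly factors outside the pattern had 3 of 27 higher, Lrpprc, Tmem126b and Uqcc, a share near that of all genes. The regulators of mitochondrial biogenesis had 6 of 18 higher in wild-type PV and 4 in TrkC:GFP, where 7.82% and 5.87% of all genes were. Esrrg, an estrogen-related nuclear receptor, stood at 64.7, 82.8 and 55.8 RPKM in TrkC:GFP, 62.5, 88.5 and 66.0 RPKM in wild-type PV, and 5.61, 3.36 and 6.72 RPKM in mutant PV, a wider gap than that of any respiratory gene tested by limma. Its relative Esrrb stood at 0.572 to 3.92, 2.24 to 3.45 and 0.194 to 0.351 RPKM. The coactivators Ppargc1a and Ppargc1b had deposited log2 fold changes of 0.79 and 0.86 in wild-type PV, and Tfb1m of the same list had 1.01. Esrra was not called, at a deposited group RPKM of 1.35 in wild-type PV and 1.91 in mutant PV.

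The ribosomes were read as other sets of small, abundant nuclear-encoded proteins. The mitochondrial ribosome, which translates the subunits encoded in the organelle, had 7 of 76 genes higher and 2 lower in wild-type PV, shares near those of all genes in the higher direction. Mrps14 stood at 9.60 to 11.9 RPKM in wild-type PV and 5.54 to 5.89 RPKM in mutant PV, and Mrpl52 went the other way, at 14.8 to 20.6 and 33.0 to 41.0 RPKM. The cytosolic ribosome had 14 of 80 genes lower in wild-type PV in the authors' deposited table, where 8.57% of all genes were (limma called 17 lower), with a median log2 fold change of -0.29. In TrkC:GFP the same list had 4 genes higher and 1 lower, where 5.87% and 4.20% of all genes were. The 4 were Rpl29, Rpl3, Rps3a and Rps15a, at deposited log2 fold changes of 2.16, 1.59, 1.24 and 0.61, and the lower 1 was Rplp0. Rplp0, of the ribosomal stalk, stood at 66.1 to 77.5 RPKM in TrkC:GFP, 50.3 to 79.5 RPKM in wild-type PV and 141 to 222 RPKM in mutant PV. Many ribosomal protein genes, like many small respiratory subunits, have processed copies in the genome, and the sources used here do not say how reads matching several places were counted.

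**Figure D5:**
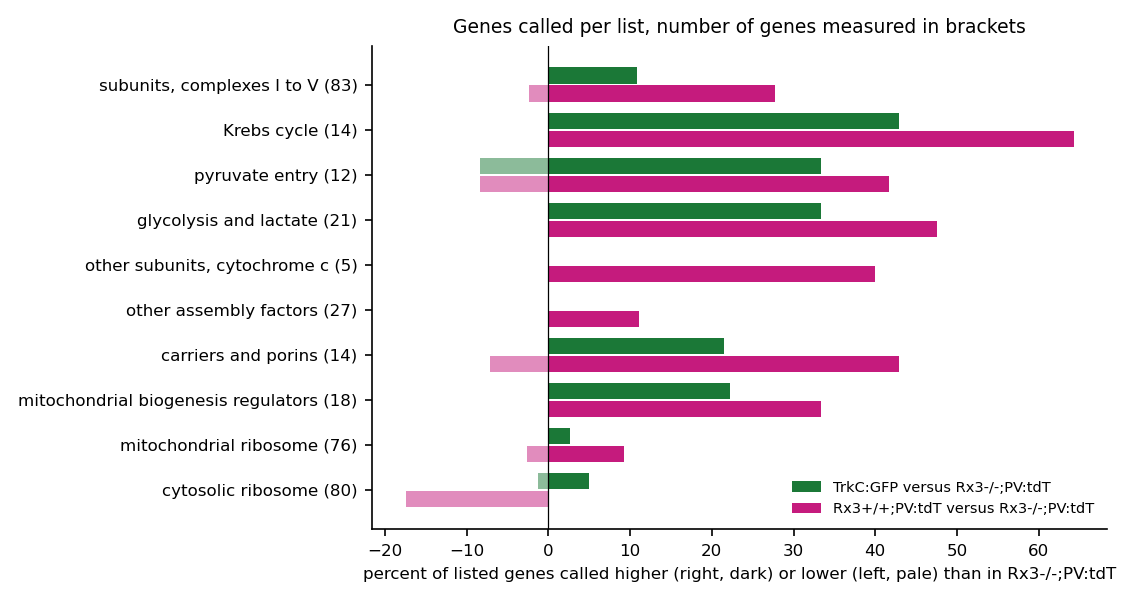
Percent of the genes of each list (rows, number measured in brackets) called higher (right of 0, dark bars) or lower (left of 0, pale bars) than in mutant PV in the authors' deposited tables, for TrkC:GFP (green) and wild-type PV (magenta). The Krebs cycle has the longest bars, 6 and 9 of 14 genes. The cytosolic ribosome is the list with the most genes lower in wild-type PV, 14 of 80. Of all genes, 5.87% and 7.82% were called higher in TrkC:GFP and wild-type PV, and 4.20% and 8.57% lower.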

How the data were processed

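Sorted neurons of 9 samples were profiled by RNA-seq. Per the labels' protocols, amplified RNA went into poly-A selected libraries read from a single end, and per the submitters' processing notes mm10 and edgeR were used. Aligner, counter, versions and strand setting: not given in the sources used here. The authors deposited 5 tables of 23038 genes holding RPKM per group, the mean log2 CPM, the log2 fold change and its p-value, raw and adjusted. Columns of TrkC:GFP values named for Rx3 were assigned by the tables' names. A member was called at the authors' deposited adjusted p under 0.05, which equalled a Benjamini-Hochberg adjustment over all genes. The authors' flag column, a deposited score, was not used.

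The deposited RPKM values equalled the mean over 3 libraries of reads plus 1, scaled by gene length and library size. Whole reads per library and gene lengths were therefore solved for 22962 of 23038 genes (99.7%), holding 76.9% to 81.8% of each library. Per-library RPKM values above leave out the added read. This was tested on simulated data, as was limma. limma 3.58.1 (voom) was run on genes with at least 10 reads in 3 libraries, with library totals as sizes. The design planned a fallback to deposited results, which stayed the main result; limma was chosen after seeing the data. Members and lists were chosen with earlier results of these data known. Named genes were the 10 called members with the smallest p per comparison and direction, the highest and lowest RPKM of each complex, catalytic subunits, paralog families, members without reads in a group, and up to 4 called genes per list and direction; a few others were added after their values were seen. Some genes that this rule selects are not reported here. Gene IDs were matched to a GRCm38.p6 table. Nothing says whether samples shared litters or sorts, so p-values measure the spread between samples. Fold bounds allow for counting error in the group without reads only, and amplified reads are not independent molecules.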

Additional observations from a re-analysis of the deposited data

How the results depend on the processing

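At a deposited adjusted p under 0.01, members called higher fell to 2 for TrkC:GFP and 17 for wild-type PV against mutant PV and 18 for both together, and members lower to 1 in the latter 2. With an absolute log2 fold change of at least 1 they were 1, 3 and 2 higher and 0, 1 and 1 lower. Adjusting over genes with a mean log2 CPM of at least 0, or keeping members with an RPKM of at least 1 in every group, left 1 lower in each of those 2, and the first of these gave 1 member, Ndufaf4, higher in wild-type PV than in TrkC:GFP. Centring on genes with reads moved the median of that comparison from 0.01 to 0.11. Alternatives chosen after seeing the data were run in limma. The median log2 fold change of all genes tested was 0.11, -0.01 and -0.10 in the 3 comparisons with total read numbers and 0.02, 0.01 and 0.00 with median ratios, which gave 13 higher and 1 lower for TrkC:GFP. Leaving out a library gave 13 to 23 higher for TrkC:GFP, and 23 to 31 higher and 0 to 2 lower for wild-type PV. Without both deeper mutant libraries, where the lone sample is assumed to vary like the others, 7 and 11 were higher. The causes were not tested. No paired analysis was possible because the recovered libraries cannot be tied to replicate numbers. Exons of 26 members overlap those of another gene in GENCODE M21, 23 on the opposite strand (Ndufs1, Ndufa9, Uqcrc2 and Atp5j among them), and such reads cannot be told apart without strand.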
